A study of Mus musculus with 4 samples.

Results

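Chemokines are small secreted or membrane-anchored proteins that draw leukocytes along a gradient, and fibroblasts are a well known source of them in inflamed tissue and in the stroma of tumours. The chemokines described here are 10 ligand genes associated with fibroblasts: Cxcl1, Cxcl5, Cxcl10, Cxcl12, Cxcl16, Ccl2, Ccl5, Ccl7, Ccl8 and Cx3cl1. They were picked by gene name among the probes of the array, with earlier results of these data known. The array carried 13 probes for them. After the filter on dim probes 8 of the 10 genes were left among the 24656 genes tested in all, and Cxcl16 and Ccl8 were below that filter.

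The study measured RNA from C3H10T1/2, an established mouse embryo fibroblast line, by one-colour expression array. All cells had been chemically transformed: 3MC (a polycyclic hydrocarbon carcinogen, MCA in the study's title) at 2.5 µg/ml for 2 days, then TPA (a phorbol ester tumour promoter) at 100 ng/ml, given repeatedly over 2 weeks, then normal medium for 4 weeks. The untreated group (2 arrays) received nothing further, and the DEM group (2 arrays) was exposed to 0.25 mM diethyl maleate, an electrophile that depletes glutathione. The labels give no exposure time, and untransformed cells were not analysed here. The transformed cells came from flasks that also formed foci, so a flask may hold transformed and non-transformed cells. Whether the 2 arrays of each group are separate cultures or repeats of 1 is not stated in the labels. The p-values therefore measure only the spread between these arrays, which may be technical.

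The CXC ligands with an ELR motif (Cxcl1, Cxcl5) act on neutrophils through Cxcr2. Cxcl12 acts on Cxcr4 and is also bound by the scavenger receptor Ackr3, while Cxcl10 is induced by interferon and acts on Cxcr3. The CC ligands Ccl2, Ccl7 and Ccl8 attract monocytes, Ccl5 attracts T cells and monocytes, and Cx3cl1 and Cxcl16 are made as membrane-anchored proteins that proteases can shed. In many cells the inflammatory members are transcribed in response to NF-kB, and Cxcl10 also in response to interferon regulatory factors, whereas Cxcl12 is largely constitutive.

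Promoters show how the members differ in these elements. RefSeq promoter sequences on the mouse build GRCm38.p6 were matched for 5 of the 10 genes: Cxcl1, Cxcl10, Cxcl12, Ccl8 and Cx3cl1. The 250 bases before the start site are printed for 3 of them, chosen as an inflammatory neutrophil chemokine, an interferon-inducible chemokine and a constitutive one. Each is written 5′ to 3′ on the strand of the gene, with capitals marking every match to the motifs searched on both strands.
Cxcl1, chr5:90890995-90891244, plus strand: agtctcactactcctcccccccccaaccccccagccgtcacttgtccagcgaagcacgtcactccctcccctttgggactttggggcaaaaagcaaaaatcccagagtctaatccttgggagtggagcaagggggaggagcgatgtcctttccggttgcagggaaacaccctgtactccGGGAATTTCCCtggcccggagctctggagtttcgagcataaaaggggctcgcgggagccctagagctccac
Cxcl10, chr5:92348890-92349139, minus strand: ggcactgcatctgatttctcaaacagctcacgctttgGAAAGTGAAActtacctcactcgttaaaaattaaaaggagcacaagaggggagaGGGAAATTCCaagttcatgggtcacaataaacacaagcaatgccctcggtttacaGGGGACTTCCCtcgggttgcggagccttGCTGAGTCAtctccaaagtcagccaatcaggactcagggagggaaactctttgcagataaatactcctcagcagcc
Cxcl12, chr6:117168285-117168534, plus strand: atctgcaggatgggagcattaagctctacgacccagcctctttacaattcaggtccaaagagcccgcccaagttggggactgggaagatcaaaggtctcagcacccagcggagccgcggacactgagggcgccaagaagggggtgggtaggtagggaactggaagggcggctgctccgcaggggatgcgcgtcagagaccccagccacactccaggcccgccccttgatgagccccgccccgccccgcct
The motifs searched were the NF-kB consensus, the ISRE core of interferon regulatory factors (GAAA, any 2 bases, GAAA), the AP-1 site TGANTCA, the antioxidant response element core TGACNNNGC and the TATA box TATAAA. Counting back from the start site, the capitals in Cxcl1 are 2 overlapping NF-kB matches between bases -71 and -61. Cxcl10 had the ISRE core at -213 to -204, an NF-kB match at -159 to -150, a pair of overlapping NF-kB matches between -104 and -94, and an AP-1 match at -74 to -68 that lies inside an antioxidant response element match at -76 to -68. No motif of the set matched in the Cxcl12 window. In the windows not printed, Ccl8 had a TATA box at -32 to -27 and Cx3cl1 had one at -6 to -1, with no other match in either. Among 32851 promoter windows of the same length, 7.25% held the NF-kB consensus, 2.98% the ISRE core, 6.75% the AP-1 site, 10.2% the antioxidant response element core and 12.4% the TATA box. A match describes the letters only, and binding was not measured.

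Of the 8 chemokine genes measured, 6 were lower with DEM (Cxcl1, Cxcl5, Cxcl12, Ccl2, Ccl7 and Cx3cl1) and 0 were higher. Across all 24656 genes, 11.8% were called lower and 15.5% higher, 27.2% in all. A call means an adjusted p under 0.05 in limma's moderated test with Benjamini-Hochberg adjustment over all genes. The 6 genes fell by 2.48-fold to 9.38-fold, and each change was larger than 2-fold, a size of fall that 9.74% of all genes passed. The count at an unadjusted p under 0.05 was also 6 lower and 0 higher. Both DEM arrays lay below both untreated arrays for 7 of the 8 genes, against 26.0% of all genes, and above them for 0, against 42.4% of all genes. The arrays overlapped for 1 gene, Ccl5. The median change of the 8 genes was -2.07 on the log2 scale, against 0.16 over all genes tested. The 2 genes below the filter are not in these counts.

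**Figure D1:**
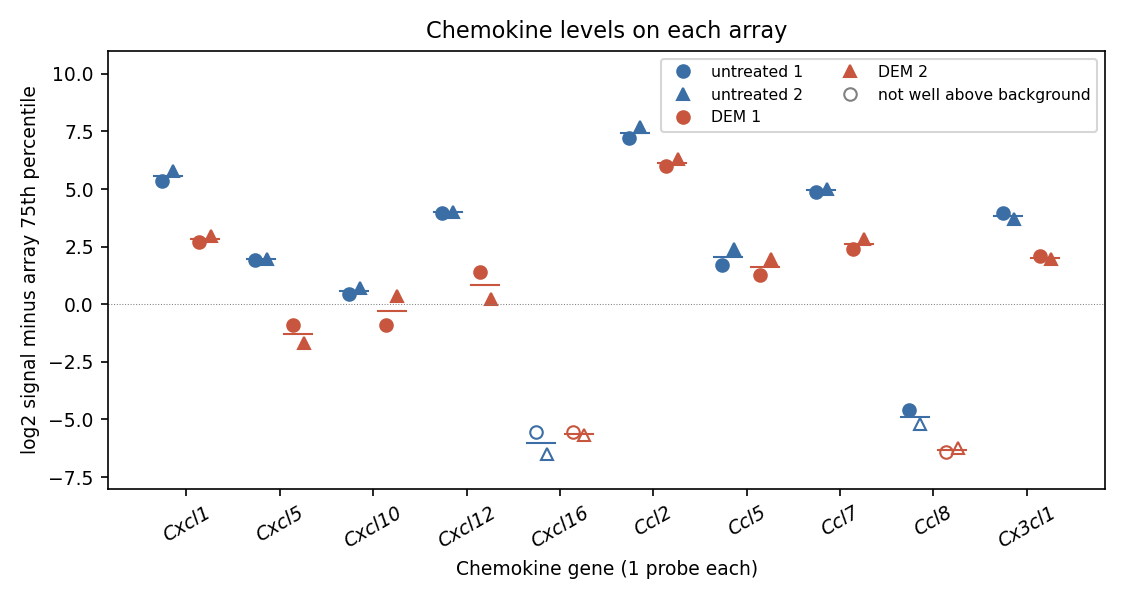
Level of each of the 10 chemokine genes on every array, as log2 signal minus the array's 75th percentile (vertical axis). Points are single arrays of the untreated and DEM groups and bars are group means. Hollow points were not well above background. Among the genes past the filter, the DEM arrays sit below the untreated arrays for all except Ccl5, where the groups overlap. Cxcl16 and Ccl8, below the filter, are also drawn, and the groups of Cxcl16 overlap. Levels of different genes come from different probes and are not to be compared.

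Levels are given below as log2 processed signal minus the 75th percentile of the same array, so that 0 is the signal at that percentile. A change is the DEM mean minus the untreated mean, ± its standard error from the limma fit, with its 95% interval. Each group had n = 2 arrays. The level of one gene's probe cannot be set against that of another gene's probe.

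Among the neutrophil chemokines, Cxcl1 and Cxcl5 both fell. The level of Cxcl1 was 5.33 and 5.78 without DEM, and 2.68 and 2.97 with it. The lower untreated array stood well above the higher DEM array. The change was -2.73 ± 0.22 (95% interval -3.26 to -2.21), a 6.64-fold fall with a limma adjusted p of 0.00134. For Cxcl5 the level was 1.91 and 1.98 untreated, and -0.88 and -1.69 with DEM. The untreated arrays were close together and the DEM arrays further apart, with DEM 2 the lower, and the groups did not overlap. The change was -3.23 ± 0.30 (-3.95 to -2.51), a 9.38-fold fall with a limma adjusted p of 0.00202. In the RefSeq gene order both genes belong to a run on chromosome 5 that reads Cxcl5, Ppbp, Pf4, Cxcl3, Cxcl15, Cxcl1 and Cxcl2 with no other protein-coding gene between them. Within that run Pf4, platelet factor 4, was called lower as well. It passed the filter through the untreated arrays alone, so it could only come out lower. Ppbp, Cxcl3, Cxcl15 and Cxcl2 were below the filter.

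Cxcl12, the ligand of Cxcr4 that retains haematopoietic cells in bone marrow, was measured by 2 probes that carry different RefSeq accessions. The brighter probe, annotated to NM_013655, gave levels of 3.97 and 4.01 untreated, and of 1.40 and 0.24 with DEM. The untreated arrays agreed closely, while DEM 2 was lower than DEM 1. The change was -3.17 ± 0.37 (-4.08 to -2.25), an 8.98-fold fall with a limma adjusted p of 0.00383. The probe annotated to NM_021704 gave 3.46 and 3.08 untreated, and 0.14 and -1.57 with DEM. Its change was -3.98 ± 0.53, a 15.8-fold fall with a limma adjusted p of 0.00513 in a fit over probes. Without DEM 1 the change of the brighter probe was -3.75 and without DEM 2 it was -2.58. Both probes placed DEM 2 below DEM 1 and both DEM arrays below the untreated ones. The level of the first probe minus that of the second was 0.51 and 0.92 untreated, and 1.26 and 1.81 with DEM. This difference between the probes was wider on both DEM arrays and was not tested.

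Cxcl10, the interferon-inducible ligand of Cxcr3, did not pass the test. Its level was 0.44 and 0.71 untreated, and -0.92 and 0.35 with DEM. Both DEM arrays were below both untreated arrays, but DEM 2 lay just under the lower untreated array and DEM 1 far below it. The difference was -0.87 ± 0.42 (-1.88 to 0.15) with a limma adjusted p of 0.172. With DEM 2 left out, the difference was -1.50, and without DEM 1 it was -0.23, so its size depended on which DEM array was kept.

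Of the monocyte chemokines, Ccl2 and Ccl7 fell. Ccl2, which attracts monocytes through Ccr2, had levels of 7.22 and 7.68 untreated, and of 5.99 and 6.29 with DEM. The groups were separate and each pair lay within less than the gap between them. The change was -1.31 ± 0.21 (-1.81 to -0.81), a 2.48-fold fall with a limma adjusted p of 0.0084. This was the smallest of the 6 falls. Without untreated 2 the change was -1.08 with a limma adjusted p of 0.0678, and under scaling to the array's spike-in probes it was -1.41 with an adjusted p of 0.326, so the call was lost in both. The Ccl2 spot was not marked as saturated on any array.

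Ccl7, which acts on Ccr2 and other CC receptors, was measured by 2 probes of the same transcript. The brighter gave levels of 4.88 and 5.01 untreated, and of 2.41 and 2.82 with DEM. The arrays of each group were close, and the groups did not overlap. The change was -2.33 ± 0.20 (-2.82 to -1.85), a 5.04-fold fall with a limma adjusted p of 0.00159. The other probe gave -2.21 ± 0.19, a 4.62-fold fall. The level of the first probe minus that of the second was 0.42 and 0.47 untreated, and 0.28 and 0.35 with DEM, a narrower range than for the probes of Cxcl12.

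Ccl8, a further monocyte attractant, was at the limit of detection. Its raw processed signal was 29.0 and 20.4 untreated, and 5.22 and 5.39 with DEM. It was marked well above background on 1 array, untreated 1, where the dimmest probe so marked had a signal of 24.8. Ccl8 was therefore outside the fit, and no fold is given because untreated 2 and both DEM arrays lacked that mark. In the RefSeq gene order Ccl2, Ccl7, Ccl11, Ccl12, Ccl8 and Ccl1 follow one another on chromosome 11 with no other protein-coding gene between them, and of these only Ccl2 and Ccl7 passed the filter.

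Ccl5, an attractant of T cells and monocytes, did not pass the test. Its level was 1.72 and 2.38 untreated, and 1.28 and 1.95 with DEM. DEM 2 was above untreated 1, so the groups overlapped. The difference was -0.43 ± 0.32 (-1.21 to 0.35) with a limma adjusted p of 0.352, and its interval reaches from a fall past 2-fold to a small rise. On chromosome 11 Ccl5, Ccl9, Ccl6, Ccl3 and Ccl4 are adjacent in the RefSeq gene order, and Ccl9 in that run was lower with DEM. Ccl6 was called lower as well, but it passed the filter through the untreated arrays alone, so it could only come out lower.

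The membrane-anchored chemokines differed in detection. Cx3cl1 (fractalkine), the ligand of Cx3cr1, had levels of 3.94 and 3.71 untreated, and of 2.08 and 1.97 with DEM. The pairs were tight and far apart. The change was -1.81 ± 0.18 (-2.24 to -1.37), a 3.50-fold fall with a limma adjusted p of 0.00239. Under spike-in scaling the change was -1.91 with an adjusted p of 0.136, the only setting in which the call was lost. Cxcl16, the ligand of Cxcr6, had 2 probes, and neither was well above background on any array. The raw processed signal of its brighter probe was 14.8 and 8.25 untreated, and 9.57 and 7.99 with DEM, all under the dimmest detected probe. Its transcript was therefore not detectable by these probes in either group.

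**Figure D2:**
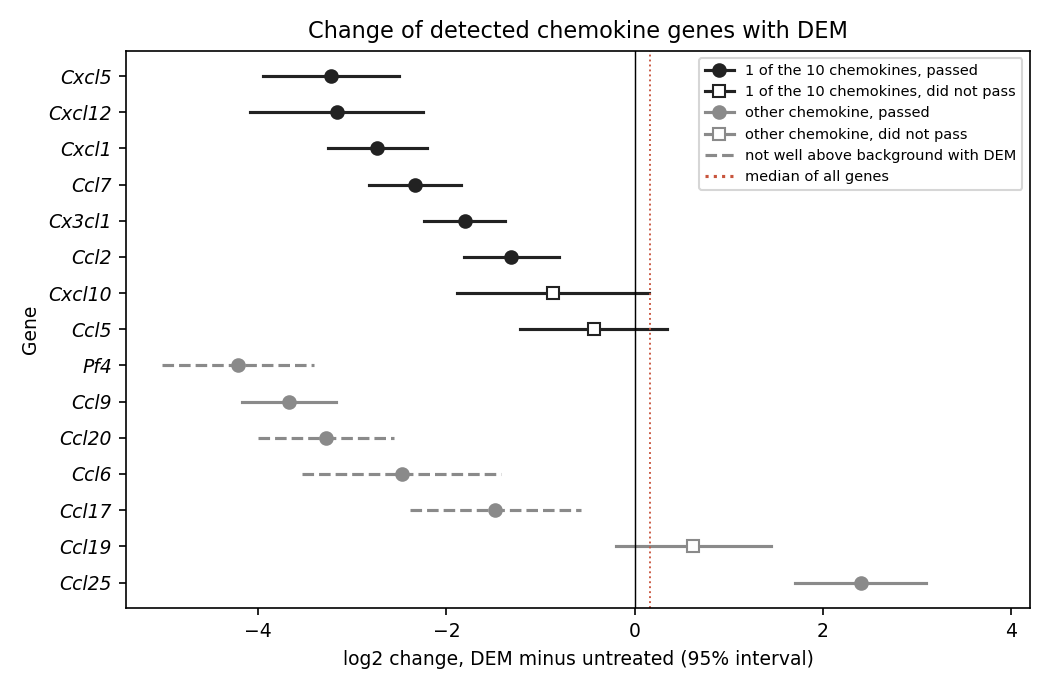
Log2 change, DEM minus untreated (horizontal axis), of the 15 detected chemokine genes with 95% intervals from the limma fit. Filled points passed the test, dashed lines mark genes not well above background in the DEM group, whose plotted change depends on signal under the detection limit, and the dotted line is the median of all genes. Of the 8 fibroblast chemokines, 6 lie clear of 0 on the lower side, and Ccl25 is the single gene called higher.

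The other chemokine ligands on the array were mostly undetected. Of 30 listed, 28 were on the array, 21 of these were below the filter and 7 were measured. Of the 7, 5 were lower and 1 was higher, and 3 were lower with either untreated array left out. Of the 5 lower genes, 4 (Pf4, Ccl20, Ccl17 and Ccl6) passed the filter through the untreated arrays alone, so they could only come out lower, and with detection required on all 4 arrays the count was 1 lower, Ccl9. The median change of the 7 was -2.48, or -1.19 with the 4 genes that were undetected with DEM set at their bounds. Ccl9, a myeloid cell attractant, had levels of 2.19 and 2.38 untreated, and of -1.25 and -1.53 with DEM, a change of -3.67 ± 0.21 with a limma adjusted p of 0.000692. It was well above background on all arrays, and the groups were far apart. Pf4, Ccl20, Ccl17 and Ccl6 were not well above background on either DEM array, so their fall is a bound. The untreated mean of the normalised log2 level was set against the dimmest detected probe of each DEM array, or the gene's own level where higher. Pf4 was at least 3.73-fold lower (limma adjusted p = 0.00132) and Ccl20, the ligand of Ccr6, was at least 4.74-fold lower (0.0019). These bounds hold for the processed signal: with normexp, which adds an offset, the changes were -1.19 for Pf4 and -1.12 for Ccl20, smaller by over 1.5 times, and both kept their calls. Ccl17, a ligand of Ccr4, was at least 2.29-fold lower (0.0337), and Ccl6 was at least 1.14-fold lower (0.0114). The calls of Ccl17 and Ccl6 were lost in 5 and 4 of 15 other settings. With normexp the changes shrank to -0.30 for Ccl17 (adjusted p = 0.142) and -0.19 for Ccl6 (0.255). Without untreated 1 the adjusted p was 0.127 for Ccl17 and 0.0563 for Ccl6, and without untreated 2 it was 0.221 and 0.108. In the RefSeq gene order Ccl22, Cx3cl1 and Ccl17 follow one another on chromosome 8, and Ccl22 was below the filter.

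Ccl25, the thymic and intestinal ligand of Ccr9, moved the other way. Its level was 1.20 and 0.54 untreated, and 3.50 and 3.04 with DEM, a change of 2.40 ± 0.29 with a limma adjusted p of 0.00383. Both DEM arrays were above both untreated arrays. Ccl19, a ligand of Ccr7, gave 0.62 ± 0.34 with a limma adjusted p of 0.217 and did not pass. It passed with normexp background correction, at 0.65 with an adjusted p of 0.00858.

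Of the receptors, 23 were listed and 4 were measured: 2 were lower and 1 was higher. Among the signalling receptors of the 10 ligands, Cxcr2, Cxcr3, Cxcr4, Cxcr6, Ccr2 and Cx3cr1 were all below the filter. Ackr3, the scavenger of Cxcl12, fell below detection with DEM, by at least 3.16-fold (limma adjusted p = 0.00207), and with normexp its change was -0.90 and kept its call. Ccrl2, which binds chemerin without signalling, fell likewise by at least 1.20-fold (0.0109), a call lost with normexp (-0.12, adjusted p = 0.543), with spike-in scaling (0.0603), without untreated 1 (0.101) and without untreated 2 (0.0625). All 3 receptors called had passed the filter through 1 group alone, and with detection required on all 4 arrays 0 receptors were called in either direction. Xcr1, the receptor of Xcl1, gave -0.36 ± 0.39 (0.527) and changed sign with normexp and without DEM 1. The receptors' median change was -1.42, or -0.31 with the 3 bounded genes at their bounds.

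**Figure D3:**
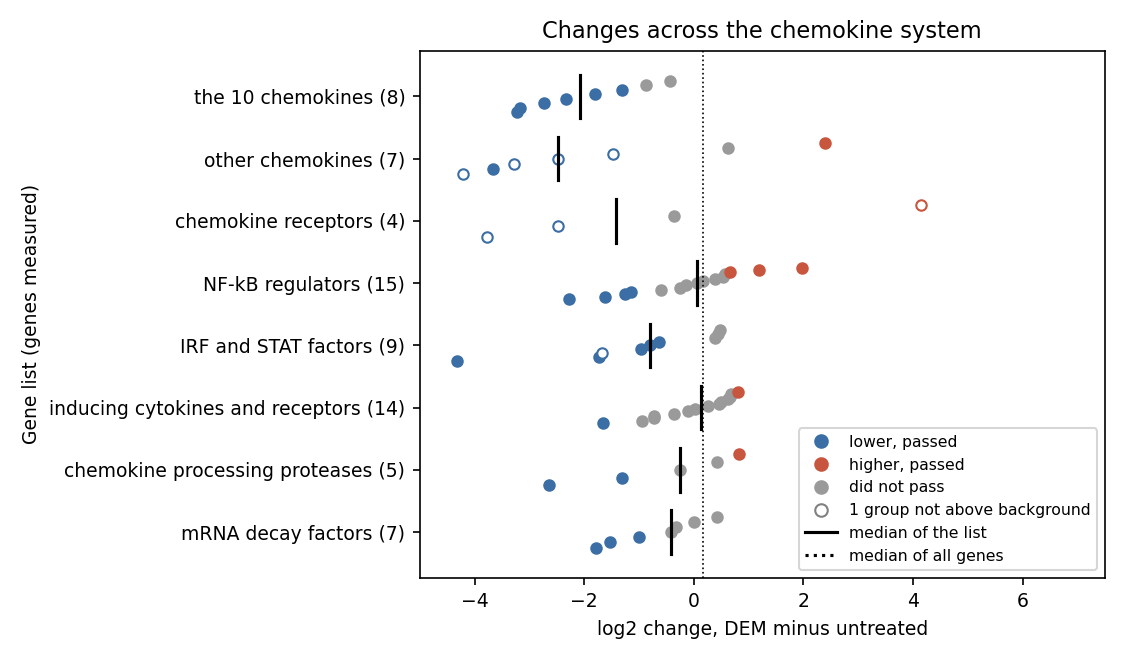
Log2 change, DEM minus untreated (horizontal axis), of every measured gene in each list of the chemokine system, with the number measured after the name. Colours give the limma call, hollow points are genes not well above background in 1 group, whose plotted change depends on signal under the detection limit, solid ticks are list medians and the dotted line is the median of all genes. The medians of the 8 chemokines measured (-2.07) and of the IRF and STAT factors (-0.80) lie below that of all genes (0.16), and that of the NF-kB regulators (0.06) is near it.

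NF-kB regulators were split between directions. All 15 listed were measured, with 3 higher, 4 lower and 8 not passing, and a median change of 0.06. Nfkbie (an inhibitor that is itself induced by NF-kB) fell by 2.27 on the log2 scale, with levels of 1.94 and 2.16 untreated and -0.50 and 0.07 with DEM (limma adjusted p = 0.00318). Nfkbiz, a nuclear coactivator, changed by -1.25 ± 0.17 (0.00585), and Tnip1, a partner of the A20 deubiquitinase, by -1.14 ± 0.18 (0.00838). Ikbkg, the regulatory subunit of the IKK kinase, rose by 1.98 ± 0.32 (0.00939). Tnfaip3, which encodes A20, was the other gene called lower, and Rela and Nfkbib, a subunit and an inhibitor, were the others called higher. These 3 are named from their calls. Scaling to the spike-in probes left 1 of the list lower, Nfkbie, and 0 higher. Leaving out either untreated array left 2 of the list lower and 1 higher. Nfkbiz then had an adjusted p of 0.0535 without untreated 1 and 0.0689 without untreated 2, and without untreated 2 it was 0.0793 for Tnip1 and 0.0715 for Ikbkg. Nfkbie passed in every setting run.

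Of the 10 IRF and STAT factors listed 9 were measured, with 6 lower and 0 higher (2 higher at an unadjusted p under 0.05) and a median of -0.80, or -0.63 with Irf5 at its bound. Irf7, the amplifier of the type I interferon response, had levels of 0.34 and 1.04 untreated, and of -3.09 and -4.16 with DEM, a change of -4.31 ± 0.42 with a limma adjusted p of 0.00239. It was marked well above background on 3 of the 4 arrays, and with normexp its change was -2.91 and kept its call. Irf9, the DNA-binding part of the ISGF3 complex, changed by -1.73 ± 0.26 (0.00753). Irf5 fell below detection with DEM, and its call at an adjusted p of 0.0351 carried no fold, since its bound was at 1. Spike-in scaling left 1 gene of the list lower, Irf7, and 0 higher. Leaving out either untreated array left 1 gene of this list lower, Irf7. Without untreated 1 and without untreated 2 the adjusted p was 0.058 and 0.0656 for Irf9, and 0.168 and 0.191 for Irf5, each with the same direction. Cxcl10, whose promoter window holds the ISRE core shown above, did not pass the test while these factors did. The difference between their changes was not tested.

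Of 20 cytokines and receptors that induce chemokines 14 were measured, with 1 lower, 1 higher and a median of 0.14. Il6 fell, with levels of 0.50 and 0.34 untreated and of -1.23 and -1.25 with DEM (limma adjusted p = 0.00383). Tnfrsf1a, the main receptor of TNF, changed by 0.80 ± 0.17 (0.0209). Il1r1, the receptor of interleukin-1, gave -0.73 ± 0.22 (0.0521), and Tlr3, a sensor of double-stranded RNA, gave -0.95 ± 0.29 (0.0598), and neither passed. Without DEM 1 and without DEM 2 the change was -0.92 and -0.55 for Il1r1, and -0.77 and -1.12 for Tlr3. Without untreated 1 the adjusted p was 0.0514 for Il6 and 0.149 for Tnfrsf1a, and without untreated 2 it was 0.0767 for Tnfrsf1a. The ligands Tnf, Il1a, Il1b, Il17a, Ifnb1 and Ifng were below the filter. With spike-in scaling 0 genes of this list were called in either direction.

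Of 7 proteases that shed or trim chemokines 5 were measured. Adam17, a sheddase of Cx3cl1, changed by 0.82 ± 0.18 (limma adjusted p = 0.0237) and was higher, and Adam10, the other main sheddase of Cx3cl1 and Cxcl16, gave 0.42 ± 0.25 (0.259) and did not pass. Mmp2, which cleaves Cxcl12 and Ccl7, changed by -1.31 ± 0.20 (0.00791) and was lower. Mmp3 was called lower as well (0.0469), but DEM 2 was under detection, with a raw processed signal of 5.88 against 23.1 for the dimmest detected probe, so its size is not given. It passed in 7 of 15 other settings, and with normexp the change was -0.63 (0.0561). Without untreated 1 the adjusted p was 0.0874 for Adam17 and 0.21 for Mmp3. Without untreated 2 it was 0.174 for Adam17, 0.129 for Mmp3 and 0.0715 for Mmp2. Without DEM 2 the change of Mmp3 was -1.50. Spike-in scaling left 1 protease lower, Mmp3, and 0 higher. The median of the 5 was -0.25.

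All 7 listed factors of mRNA decay and binding were measured, with 3 lower, 0 higher (0 also at an unadjusted p under 0.05) and a median of -0.42. Zfp36l1, which promotes decay of AU-rich transcripts, changed by -1.79 ± 0.19 (limma adjusted p = 0.00303). Zc3h12a, the endonuclease Regnase-1, changed by -1.53 ± 0.31 (0.0181), and Auh by -0.99 ± 0.18 (0.0121). Elavl1, the stabilising protein HuR, gave 0.42 ± 0.18 (0.127) and did not pass. With spike-in scaling 0 of the list were called in either direction, and the limma adjusted p of Zfp36l1 was 0.142. Auh lost its call without untreated 1 (adjusted p = 0.0829) and without untreated 2 (0.0981), and Zc3h12a without untreated 2 (0.126).

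The DEM arrays were dimmer as a whole. The 75th percentile of the signal was 701 and 747 untreated, and 449.9 and 412 with DEM, and every level above is relative to it. Between 47.8% and 52.7% of the non-control probes of an array were well above background. The correlation over the genes tested was 0.988 between the untreated arrays, 0.983 between the DEM arrays and 0.937 to 0.947 across groups. All 4 arrays were on 1 slide with 1 scan time. All 11 fibroblast markers were measured, which is in keeping with the label of the cells, and 7 of them were lower with DEM and 0 higher (3 lower without untreated 1, 4 without untreated 2 and 5 with detection required on all 4 arrays). Their summed linear level was 1550 and 1610 untreated, and 841 and 1248 with DEM, so it moved in the same direction as the 6 chemokines. Its part in their fall was not tested. The brightest probes weigh most in such a sum. The brightest was S100a4, with log2 levels of 9.18 and 9.21 untreated and 8.12 and 9.19 with DEM, and it did not pass the test. Of 9 macrophage markers 4 were measured and 1 was lower, and Ptprc, Adgre1, Csf1r, Itgam and Tyrobp were below the filter. Their summed level was 4.61 and 5.59 untreated, and 4.85 and 6.83 with DEM, which overlaps. Of 6 T cell, 6 endothelial and 6 epithelial markers, 2, 1 and 3 were measured, with 0, 1 and 0 lower. In bulk RNA, fewer cells that make a chemokine and less of its RNA per cell cannot be told apart.

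The 6 calls were then set against the other ways of processing these arrays. These settings include fits with 1 array left out, in which the spread of that array's group plays no part. Cxcl1 changed by -2.96 to -2.51 and Cxcl5 by -3.63 to -2.83 over 16 other settings, and both passed in all of them. Over 17 settings that include the second probe, Cxcl12 changed by -3.98 to -2.58 and Ccl7 by -2.55 to -2.12, and both passed in all. Cx3cl1 passed in 15 of 16 (all at or below -1.69) and Ccl2 in 14 of 16 (-1.62 to -1.08). Cxcl10 passed in 1 of 16 (-1.50 to -0.23) and Ccl5 in 0 of 16 (-0.77 to -0.10). For each of the 8 genes the difference stayed below 0 in every setting run.

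**Figure D4:**
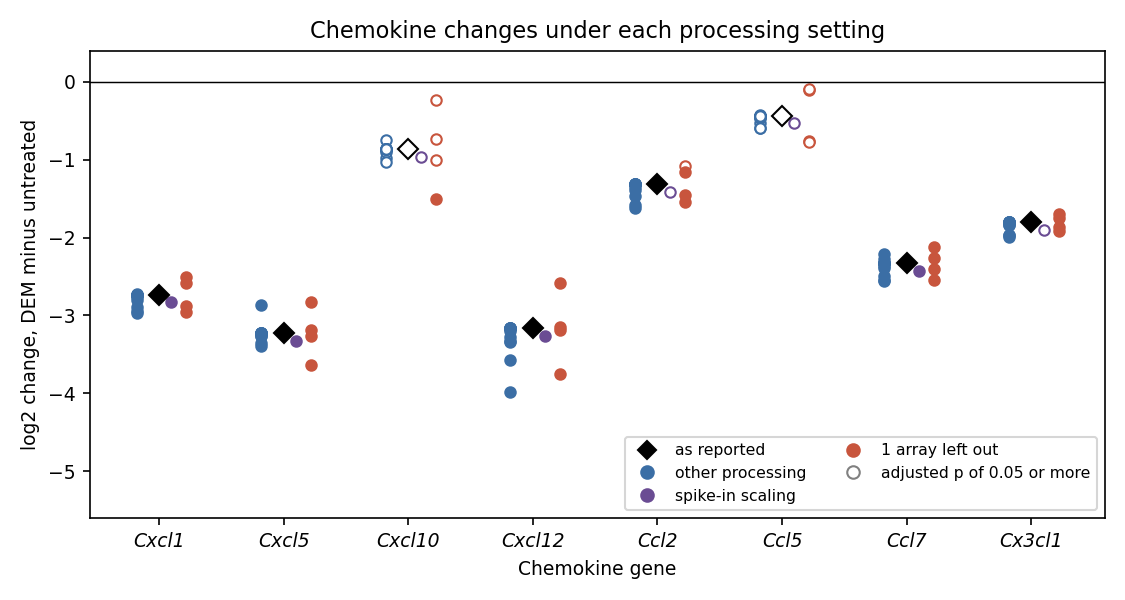
Log2 change, DEM minus untreated (vertical axis), of each measured chemokine gene as reported and under every other setting run, with settings that leave out 1 array shown apart from other processing. The other processing includes a second probe for Cxcl12 and Ccl7. All values lie below 0, and those of Cxcl10 and Ccl5 spread most towards it.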

How the data were processed

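One-colour Agilent arrays of 4 samples (500 ng of RNA each) were analysed. The scanner files hold spot intensity made by the authors with Feature Extraction 10.7.3.1, per the file headers; the processed intensity is background-subtracted. The authors' deposited table of log2 values gave 1 column per array with medians of -4.39, -4.35, -4.30 and -4.36, and matched the scanner values on the log2 scale up to 1 constant per array (tolerance 0.01) for at least 99.98% of probes; it was an alternative. Control spots and outlier spots were left out and spots of a probe were averaged. The log2 processed signal was taken minus each array's 75th percentile. The filter kept 31769 of 61177 probes, those that 2 or more of the 4 arrays marked well above background, and the brightest stood for its gene. Probes were named by RefSeq accession where it matched (28136 of 61307), and otherwise by the symbol in the file. Differences were tested two-sided with limma 3.58.1 (R 4.3.3, lmFit and eBayes with an intensity trend, prior degrees of freedom 4.03, residual 2), adjusted over 24656 genes at 0.05, and checked on simulated data.

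The members, gene lists and tests were chosen with earlier results of these data known, so the lists are no independent evidence. The genes named are the 10 chemokines, the other chemokines past the filter and up to 4 genes of smallest p in each other list, apart from genes not reported here; Tnfaip3, Rela and Nfkbib were named after their values were seen. Replicate numbers were shared between the groups, but deviations of same-numbered arrays correlated at 0.0844 and nothing in the labels pairs them. With 2 arrays a group, their number limits the precision.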

Additional observations from a re-analysis of the deposited data

How the results depend on the processing

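Over all genes, 2900 were lower and 3812 higher as reported. Scaling to the spike-in probes gave 787 and 363. Genes higher numbered 6469 with normexp, 2529 with cyclic loess and 17297 with no filter on dim probes. Leaving out 1 array gave 801 to 3814 lower and 644 to 4488 higher; the lowest counts came without untreated 2 (801 and 644) and without untreated 1 (871 and 834). The share of higher among called genes was 56.8%, against 70.0% with normexp, 46.9% with quantile normalization, 40.8% with cyclic loess, 42.0% with the percentile over detected probes, 31.6% with spike-ins and 84.7% with no filter. The median of all genes moved by -0.15, -0.16, -0.10 and 0.31 under cyclic loess, detected probes, spike-ins and no filter. Of 130 values of the chemokine genes under other settings, 126 kept their direction and side of the threshold, 3 lost the call, 1 gained it and 0 reversed. The count of chemokines lower was 4 with spike-ins, 7 with no filter (the seventh was Ccl8, which lies under detection on 3 arrays) and 5 to 7 with 1 array left out, and the count higher stayed at 0. With no filter, 13 other chemokines and 10 receptors were called higher, since genes under the detection limit entered. Xcr1 reversed to 0.11 with normexp, lay between -0.82 and 0.095 with 1 array left out (0.095 without DEM 1), and Irf5 reversed to 0.076 with normexp. Whether arrays with the same replicate number belong together is not stated in the labels and is unknown. Set against the spike-ins, the 75th percentile stood at -2.81 on untreated 1 and -2.83 on DEM 1. On untreated 2 and DEM 2 it stood at -3.53 and -3.72, so same-numbered arrays were alike in this value. Deviations of same-numbered arrays over the genes, however, correlated at only 0.0844. A fit with the replicate number as a block gave 3377 genes lower and 4472 higher, with 6 chemokines lower. Where a cause is not stated here, the cause was not tested. Signal over background limits Ccl8 and Cxcl16.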
